A study of Mus musculus with 60 samples.

Results

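Across 60 RNA-seq libraries from mouse medial prefrontal cortex (mPFC), 9 genes of GABA synthesis and interneuron identity were followed: Gad1, Gad2, Slc32a1, Pvalb, Calb2, Reln, Lhx6, Dlx1 and Erbb4. They were taken by gene name from a table of 55414 genes, of which 35659 had a count in some library, and 9 of 9 names were found. All 9 passed the filter on low counts in both fractions. The mice were of the inbred DBA2/J strain and expressed GFP-L10a, a tagged protein of the ribosome, and the series describes 5 days of social defeat, named smSDS. The samples formed 4 subtypes (SA, SA:ANH, ANH and RES, as the labels write them) and an NS group. The labels neither spell these names out nor say which groups were defeated, which promoter drove the tag, or how old the mice were. Each group had 6 IP libraries, from ribosomes pulled down with an anti-GFP antibody and labelled as aPVT projector cells, and 6 Input libraries of bulk mPFC prepared with no antibody. Whether each library stands for a different animal is not stated, so p-values rest on a spread between libraries that could be technical.

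GABA is the main inhibitory transmitter of the cortex and is made from glutamate by the glutamate decarboxylases GAD67 (Gad1) and GAD65 (Gad2), then loaded into synaptic vesicles by the transporter encoded by Slc32a1. Cortical interneurons fall into classes marked by calcium-binding proteins such as parvalbumin (Pvalb) and calretinin (Calb2), by the secreted glycoprotein reelin (Reln) and by neuropeptides. Dlx1 and Lhx6 encode transcription factors of developing and adult interneurons, and Erbb4 encodes a neuregulin receptor found mostly on interneurons in the cortex. Projection neurons of the cortex release glutamate instead.

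Library totals lay between 19078928 and 27073456 counts, and no library stood apart from its group. Levels are in CPM, counts scaled to a shared library size, as mean ± SD with n = 6 per group or n = 30 per fraction. Log2 fold changes are given ± SE, and adjusted p-values come from the quasi-likelihood test of edgeR, corrected by Benjamini-Hochberg over all genes tested. A gene was called changed at an adjusted p under 0.05. Of 10 excitatory neuron markers, which are not particular to the labelled aPVT projector cells, 8 stood higher in IP than in Input. Of all genes 32.8% were called higher and 42.6% lower. Among the 8 was Slc17a7, the vesicular glutamate transporter of cortical projection neurons, at 0.59 ± 0.02 on the log2 scale (edgeR adjusted p = 9.14e-37). Tbr1 at -0.47 and Nptx1 at -0.57 were lower. All 10 astrocyte, 10 oligodendrocyte, 10 microglia and 10 endothelial and mural markers tested stood lower in IP.

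Gad1 and Gad2 encode the same enzymatic activity and fell together in IP below, so the 250 bases before their start sites are shown, from RefSeq on build GRCm38.p6. The Gad1 window lies at chr2:70561879-70562128 and the Gad2 window at chr2:22622077-22622326, both on the plus strand. Capitals mark a GC box, a match to GGGCGG on either strand.
Gad1: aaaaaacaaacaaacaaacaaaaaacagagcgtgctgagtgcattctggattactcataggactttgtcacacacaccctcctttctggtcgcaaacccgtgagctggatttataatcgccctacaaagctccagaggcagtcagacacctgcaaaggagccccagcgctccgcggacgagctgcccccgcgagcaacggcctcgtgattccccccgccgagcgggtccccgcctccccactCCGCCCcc
Gad2: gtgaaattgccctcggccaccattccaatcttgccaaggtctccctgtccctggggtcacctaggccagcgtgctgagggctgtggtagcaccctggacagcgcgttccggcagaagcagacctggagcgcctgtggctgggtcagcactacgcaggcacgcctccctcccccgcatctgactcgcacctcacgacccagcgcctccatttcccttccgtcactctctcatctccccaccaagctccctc
The Gad1 window was 58.0% G or C with 17 CpG pairs and the Gad2 window 64.0% with 13, against medians of 52.4% and 6.0 over 32851 promoter windows of that length. The GC box stood in the Gad1 window and not in the Gad2 window, and 32.7% of all windows held it. This motif was chosen after a match was seen in the Gad1 sequence and the other 3 had none, so its presence there is a description. The homeodomain core TAATTA, the cAMP response element TGACGTCA and the early growth response site GCGTGGGCG, each searched on both strands, were in neither, against 4.84%, 1.55% and 0.536% of all windows. In the 11 windows of the 8 members that the table lists, these 3 motifs had no match and the GC box stood in 4, of Gad1, Lhx6 and Reln. The table lists no window for Calb2.

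To see how far these genes were carried into the pulldown, IP was compared with Input. All 9 members stood lower in IP, where 75.4% of 18937 genes were called and 42.6% were called lower. The enzyme gene Gad1 averaged 13.5 ± 5.47 CPM in IP and 223 ± 14.3 CPM in Input, a log2 fold change of -4.14 ± 0.06 (edgeR adjusted p = 9.76e-54). Gad2 averaged 15.3 ± 4.20 CPM in IP and 72.8 ± 9.24 CPM in Input (-2.28 ± 0.05, edgeR adjusted p = 2.59e-44). The highest IP library of Gad1 reached 25.3 CPM, under the lowest Input library at 201 CPM.

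The members fell by unequal amounts. Mean IP levels were 6.03% of the Input level for Gad1, 6.30% for the vesicular transporter gene Slc32a1, 6.54% for Pvalb, 6.71% for Dlx1 and 7.57% for Lhx6. They were 19.5% for Erbb4, 20.8% for Calb2, 21.0% for Gad2 and 29.6% for Reln. The 95% interval of the log2 fold change was -4.27 to -4.01 for Gad1 and -2.39 to -2.18 for Gad2, so the intervals of the enzyme genes did not meet. Between the largest loss of the second set, Erbb4 at -2.39 (interval -2.67 to -2.12), and the smallest of the first, Lhx6 at -3.77 (interval -3.99 to -3.54), the intervals did not meet either. The sets were drawn from these same values, so the gap between them is a description and not a test.

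**Figure D1:**
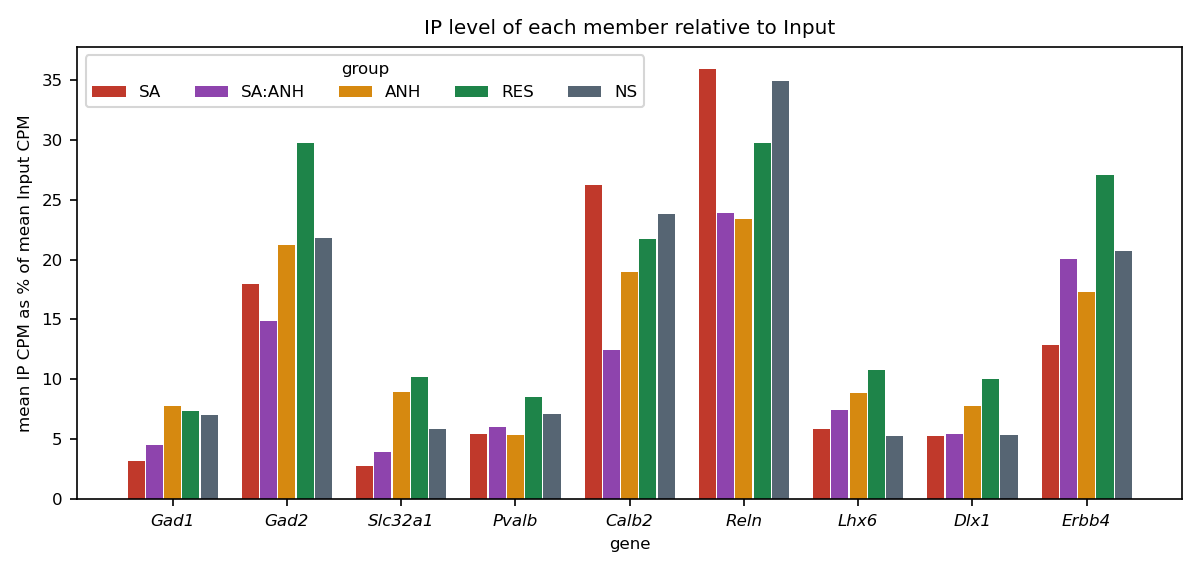
Mean IP level as a percentage of the mean Input level (vertical axis) for each gene (horizontal axis), with a bar for each group. Gad1, Slc32a1, Pvalb, Lhx6 and Dlx1 stay at or under 10.8% in every group, and Gad2, Calb2, Reln and Erbb4 lie between 12.5% and 35.9%.

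Per kilobase of exon, Input levels were highest for Gad1, at 62.0 ± 3.98 CPM per kb, and Pvalb, at 60.9 ± 5.71 CPM per kb. Calb2 stood at 16.3 ± 1.87, Gad2 at 12.7 ± 1.61, Lhx6 at 7.68 ± 0.866, Dlx1 at 6.15 ± 0.582, Reln at 2.91 ± 0.354, Slc32a1 at 1.81 ± 0.286 and Erbb4 at 0.939 ± 0.167 CPM per kb. In IP the highest were Pvalb at 3.98 ± 1.14, Gad1 at 3.74 ± 1.52, Calb2 at 3.39 ± 1.25 and Gad2 at 2.66 ± 0.732 CPM per kb, whose SDs overlap. Slc32a1 rested on 0 to 17 counts per IP library, and 1 SA:ANH library had none. The deposited position of Dlx1 overlaps that of its antisense gene Dlx1as, which averaged 3.21 counts per IP library and 37.7 per Input library. Whether counting used strand is not stated, so their reads cannot be told apart.

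Most other interneuron genes were also lower in IP than in Input. The GABA transaminase gene Abat was lower, at -1.48 ± 0.03 on the log2 scale. All 13 other interneuron transcription factors tested and all 11 other parvalbumin cell markers were lower, with medians of -3.58 and -1.92 against a median of -0.08 over all genes. Of the somatostatin list 9 of 10 were lower, Sst itself at -3.75 ± 0.02, and Nos1, which encodes neuronal nitric oxide synthase, was higher at 0.87 (edgeR adjusted p = 9.17e-29). Of the list headed by Vip 10 of 11 were lower, Vip at -4.30 ± 0.07, and the cannabinoid receptor gene Cnr1 was higher at 0.65 (edgeR adjusted p = 3.45e-20). Of 8 Lamp5 and Ndnf cell markers 6 were lower, with Id2 at -0.06 nearest to 0, while Lamp5 was higher at 0.33 (edgeR adjusted p = 3.18e-29) and Egln3 at 0.21 (edgeR adjusted p = 0.00703). The list tied to Reln signalling went otherwise, while the one tied to Erbb4 was mixed. Of 8 reelin receptor and signalling genes 7 were higher in IP, beside 32.8% of all genes called higher. Among them were the receptor gene Vldlr at 0.78 ± 0.05 and the adaptor gene Dab1 at 0.69 ± 0.02. Of 10 neuregulin and ErbB genes 3 were higher, including the ligand gene Nrg3 at 0.86 ± 0.05, and 5 were lower, including Erbb3 at -4.01 ± 0.30. These counts lay near the shares of all genes, 32.8% higher and 42.6% lower.

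**Figure D2:**
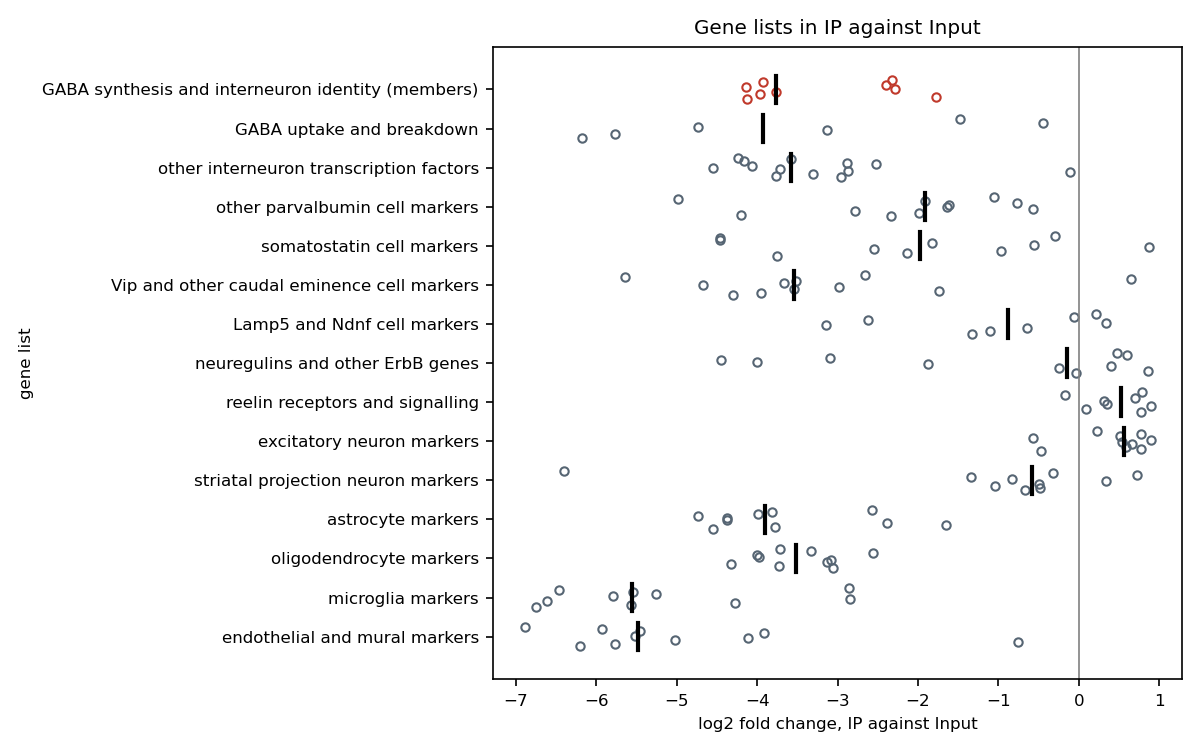
Log2 fold change of IP against Input (horizontal axis) for every tested gene of 15 lists (vertical axis). Circles are genes, the 9 members in red, and black bars are list medians, which lie at -3.77 for the members, 0.56 for excitatory neuron markers and 0.52 for reelin signalling genes.

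To find which subtypes differed from NS in the pulldown, the 30 IP libraries were fitted together. Any difference among the 5 groups was called for 5 members, Gad1, Gad2, Pvalb, Calb2 and Reln, where 33.1% of 16670 genes were called. Gad1 and Gad2 fell in SA and in SA:ANH, and Calb2 fell in SA:ANH. No member was called in ANH or in RES.

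Gad1 had a lowest, median and highest level of 4.41, 6.55 and 8.96 CPM in SA IP, and of 4.74, 11.1 and 14.2 CPM in SA:ANH IP. The same values were 12.3, 19.04 and 25.3 CPM in ANH IP, 12.6, 15.6 and 18.3 CPM in RES IP, and 12.9, 14.3 and 22.1 CPM in NS IP. Every SA library lay under every NS library, as was so for 3.92% of all genes, while SA:ANH overlapped NS. Gad1 averaged 6.78 ± 1.80 CPM in SA IP and 16.4 ± 4.05 CPM in NS IP, a log2 fold change of -1.25 ± 0.21 (edgeR adjusted p = 3.74e-05). In SA:ANH it averaged 9.92 ± 3.55 CPM, a change of -0.70 ± 0.21 against NS (edgeR adjusted p = 0.0123). The order of the group means was ANH, NS, RES, SA:ANH and SA, and the neighbours RES and SA:ANH were the pair in that order that differed (edgeR adjusted p = 0.0338).

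Gad2 had a lowest, median and highest level of 8.98, 11.1 and 15.8 CPM in SA IP, and of 7.22, 11.7 and 13.5 CPM in SA:ANH IP. It had 12.5, 15.6 and 18.0 CPM in ANH IP, 16.9, 19.1 and 23.4 CPM in RES IP, and 15.02, 18.9 and 21.2 CPM in NS IP. For this gene it was SA:ANH that lay wholly under NS, as was so for 4.57% of all genes, and SA overlapped it. Gad2 averaged 11.97 ± 2.85 CPM in SA IP and 18.4 ± 2.61 CPM in NS IP (log2 fold change -0.60 ± 0.15, edgeR adjusted p = 0.00393). In SA:ANH it averaged 10.97 ± 2.40 CPM (-0.72 ± 0.15 against NS, edgeR adjusted p = 0.000385). No neighbours in the order RES, NS, ANH, SA and SA:ANH were called different.

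SA thus had 2 of 9 members called, both lower, beside 16.6% of all genes called and 7.2% called lower. SA:ANH had 3 of 9, all lower, beside 19.7% and 8.45%. The median over the 9 members was -0.20 in SA and -0.48 in SA:ANH, against medians over all genes of 0.02 and 0.01. In ANH 0 members were called beside 7.4% of genes, with 2 at an unadjusted p under 0.05, and in RES 0 beside 4.36%, with 1. DESeq2 and limma voom also called no member in ANH or RES. The log2 interval of Gad1 was -0.23 to 0.56 in ANH and -0.47 to 0.33 in RES, which leaves out a fall as large as the -0.70 in SA:ANH.

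Slc32a1 had a median of 0.0899 CPM in SA IP and 0.304 CPM in NS IP, a log2 fold change of -1.15 with an interval of -2.48 to 0.18 (edgeR adjusted p = 0.285). The interval took in 0 as well as falls larger than that of Gad1.

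Among the calcium-binding protein genes, Calb2 had a lowest, median and highest level of 2.02, 2.41 and 4.64 CPM in SA:ANH IP, against 4.55, 5.59 and 7.25 CPM in NS IP. The highest SA:ANH library overlapped NS and the other 5 lay under it. Its means were 2.75 ± 0.947 CPM in SA:ANH IP and 5.80 ± 1.07 CPM in NS IP (log2 fold change -1.05 ± 0.24, edgeR adjusted p = 0.00152). In SA IP it averaged 6.30 ± 1.21 CPM (0.14 ± 0.24, edgeR adjusted p = 0.76). Pvalb averaged 3.61 ± 0.365 CPM in SA IP, 3.39 ± 0.178 in SA:ANH IP, 2.88 ± 0.946 in ANH IP, 5.35 ± 1.24 in RES IP and 4.21 ± 0.485 in NS IP, and none of the 4 differences from NS was called. The nearest was ANH at -0.56 ± 0.19 (edgeR adjusted p = 0.0745), which became -0.70 with an adjusted p of 0.0277 without ANH IP replicate 1.

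Reln averaged 12.99 ± 4.07 CPM in SA IP, 7.79 ± 2.33 in SA:ANH IP, 8.10 ± 2.27 in ANH IP, 10.5 ± 1.43 in RES IP and 11.1 ± 1.25 in NS IP. Its difference from NS was -0.48 ± 0.20 in SA:ANH (edgeR adjusted p = 0.0864), and -0.65 with an adjusted p of 0.0187 without SA:ANH IP replicate 2. The transcription factor genes and the receptor gene had few IP counts and wide errors. Lhx6 averaged 1.62 ± 0.860 CPM in SA IP, 1.80 ± 0.817 in SA:ANH IP, 2.40 ± 0.792 in ANH IP, 2.79 ± 0.819 in RES IP and 1.51 ± 1.11 in NS IP. Its difference between RES and NS was 0.90 ± 0.40 (edgeR adjusted p = 0.24), and 1.39 with an adjusted p of 0.0338 without NS IP replicate 6. Dlx1 group means lay between 1.35 CPM in SA IP and 2.43 CPM in RES IP, and those of Erbb4 between 1.58 CPM in SA IP and 2.95 CPM in RES IP, with no call.

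**Figure D3:**
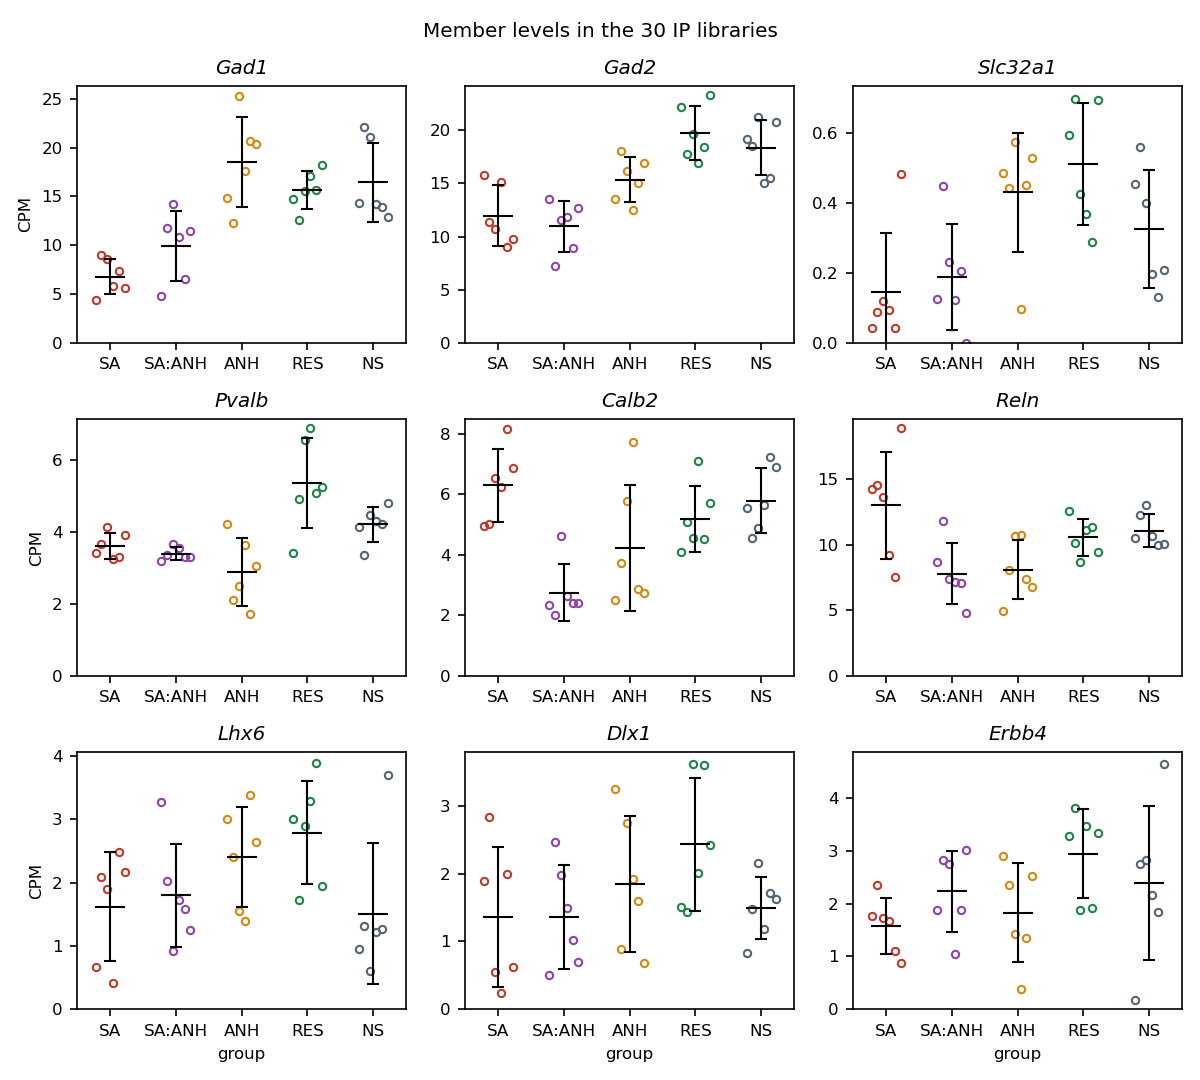
Level in CPM (vertical axes, from 0) of each gene in the 6 IP libraries of each group (horizontal axes). Circles are libraries and black lines the mean ± SD, cut at 0. The SA libraries of Gad1 lie between 4.41 and 8.96 CPM, under the lowest NS library at 12.9 CPM.

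Markers of other cells moved between the same IP groups. The summed level of 10 oligodendrocyte markers was 215 to 237 CPM in SA, 152 to 180 CPM in SA:ANH, 679 to 707 CPM in ANH, 978 to 1099.9 CPM in RES and 252 to 298 CPM in NS. None of the 10 was at 0 throughout a group. Against NS, 5 of 10 were lower in SA, 7 of 10 lower in SA:ANH, and 10 of 10 higher in ANH and in RES. Of all genes 7.2% were called lower in SA, 8.45% in SA:ANH, 4.37% in ANH and 2.11% in RES. Called higher were 9.39% in SA, 11.3% in SA:ANH, 3.02% in ANH and 2.25% in RES. The summed level of 10 astrocyte markers was 260 to 308 CPM in SA, 298 to 372 in SA:ANH, 341 to 371 in ANH, 311 to 376 in RES and 329 to 359 CPM in NS, with 5 lower and 1 higher in SA and 3 lower and 1 higher in SA:ANH. Of 9 striatal projection neuron markers tested, whose cells also make GABA, 3 were lower in SA, such as Penk at -1.09 ± 0.08, and 2 in SA:ANH, such as Ppp1r1b at -0.84 ± 0.06. Of 10 excitatory neuron markers 5 were lower in SA, and 5 were lower and 2 higher in SA:ANH. In ANH 2 of these 10 were higher and 1 lower, and in RES 1 was higher and 4 were lower. Striatal markers had 1 higher and 1 lower in ANH and 1 lower in RES. Astrocyte markers had 1 higher in ANH and 1 higher in RES. Of 8 microglia markers tested 1 was higher in SA and in SA:ANH, and of 8 endothelial and mural markers 2 were higher in SA and 0 were called in SA:ANH. From both of these lists 0 were called in ANH and in RES. The part of these cells in the member differences was not tested, and fewer cells of a type and less RNA per cell cannot be told apart in such samples.

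Other interneuron genes in IP were called in both directions. Of 11 other interneuron transcription factors tested, 0 were called in SA, SA:ANH or ANH, and 1 was lower in RES. Of 9 somatostatin cell markers tested, 4 fell in SA, with Sst, which encodes the peptide somatostatin, at 14.6 ± 1.41 CPM in SA IP and 27.8 ± 1.90 CPM in NS IP (log2 fold change -0.91 ± 0.08, edgeR adjusted p = 7.02e-11). In SA:ANH 3 rose and 3 fell, and Sst rose, to 37.4 ± 2.48 CPM (0.45 ± 0.07, edgeR adjusted p = 1.59e-05). In ANH 3 of the 9 rose and 1 fell, and in RES 2 rose and 1 fell, Nos1 being the gene that fell in both. Of all genes 11.3% were called higher in SA:ANH, 3.02% in ANH and 2.25% in RES. Those called lower were 7.2% in SA, 8.45% in SA:ANH, 4.37% in ANH and 2.11% in RES. In ANH Sst averaged 57.2 ± 4.90 CPM (1.03 ± 0.07, edgeR adjusted p = 2.52e-12) and in RES 78.1 ± 5.13 CPM (1.49 ± 0.07, edgeR adjusted p = 8.93e-17). Sst was thus lower than in NS in SA and higher in SA:ANH, ANH and RES.

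Among genes of GABA uptake and breakdown, the astrocyte-rich transporter gene Slc6a11 fell in SA (-0.49 ± 0.14, edgeR adjusted p = 0.01). Abat, whose enzyme degrades GABA, fell in SA:ANH, to 54.1 ± 5.39 CPM against 87.6 ± 7.51 CPM in NS IP (-0.67 ± 0.06, edgeR adjusted p = 4.91e-10). Of 10 parvalbumin cell markers tested, the potassium channel gene Kcnc2 fell in SA (-0.45 ± 0.15, edgeR adjusted p = 0.0381) and rose in SA:ANH (0.50 ± 0.15, edgeR adjusted p = 0.0142). In SA:ANH the synaptotagmin gene Syt2 and the perineuronal net gene Acan also fell. Of 8 reelin signalling genes Dab1 alone was called in SA and in SA:ANH, lower at -0.17 ± 0.06 and -0.30 ± 0.06. In ANH 1 of the 8 was lower, and in RES 0 were called. Of 9 neuregulin and ErbB genes tested, 0 were called in SA and Bace1 was lower in SA:ANH (-0.15 ± 0.05). Of 10 markers in the list headed by Vip, 1 rose and 1 fell in SA and 2 fell in SA:ANH, and of 8 Lamp5 and Ndnf cell markers 1 fell in SA and 2 in SA:ANH. In ANH 1 of the Vip list rose and 2 fell, and in RES 0 were called. Of the Lamp5 and Ndnf markers 3 fell in ANH and 1 in RES, beside 4.37% and 2.11% of all genes called lower. Their summed level was 695 to 730 CPM in NS IP. Its highest library stood at 657 in SA, 681 in SA:ANH, 572 in ANH and 621 CPM in RES. These sums were not tested.

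In bulk mPFC the members lay closer together. Any difference among the 5 Input groups was called for 3 members, Gad1, Gad2 and Pvalb, where 12.9% of 18170 genes were called. SA had 2 of 9 called beside 2.83% of genes, RES had 2 of 9 beside 3.23%, and SA:ANH and ANH had 0 beside 5.65% and 2.62%, each with 3 at an unadjusted p under 0.05. In both SA and RES the called genes were Gad1 and Gad2, both lower, beside 1.6% and 1.27% of genes called lower. These comparisons share the NS libraries.

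Gad1 had a lowest, median and highest level of 201, 211 and 226 CPM in SA Input, 206, 217 and 233 CPM in SA:ANH Input, 229, 236 and 256 CPM in ANH Input, 205, 212 and 223 CPM in RES Input, and 219.6, 233 and 252 CPM in NS Input. SA and RES overlapped NS at their upper ends. The log2 fold change was -0.15 ± 0.04 in SA (edgeR adjusted p = 0.0114) and -0.14 ± 0.04 in RES (edgeR adjusted p = 0.0227). The RES call was lost without RES Input replicate 5, NS Input replicate 1 or NS Input replicate 2, at adjusted p-values of 0.0551, 0.0509 and 0.0776, and with no filter on low counts, at 0.0676. In SA:ANH the change was -0.11 ± 0.04 (edgeR adjusted p = 0.0663), which DESeq2 called at 0.0403. It was also called without SA:ANH Input replicate 5, at 0.0337, and without NS Input replicate 4, at 0.0432.

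Gad2 had a lowest, median and highest level of 59.8, 65.4 and 75.2 CPM in SA Input, 62.8, 75.3 and 82.5 CPM in SA:ANH Input, 57.3, 75.1 and 81.4 CPM in ANH Input, 59.3, 66.9 and 72.4 CPM in RES Input, and 77.2, 84.7 and 88.3 CPM in NS Input. Every SA and every RES library lay under every NS library, as was so for 1.17% of all genes in SA and 1.24% in RES. The log2 fold change was -0.34 ± 0.08 in SA (edgeR adjusted p = 0.00785) and -0.34 ± 0.08 in RES (edgeR adjusted p = 0.00763). It was -0.19 ± 0.08 in SA:ANH (edgeR adjusted p = 0.142) and -0.22 ± 0.08 in ANH (edgeR adjusted p = 0.133).

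Pvalb averaged 66.1 ± 3.93 CPM in SA Input, 56.2 ± 3.20 in SA:ANH Input, 53.4 ± 1.94 in ANH Input, 62.5 ± 5.19 in RES Input and 59.2 ± 1.80 in NS Input. Every ANH library lay under every NS library, as was so for 1.23% of all genes, but the difference was not called (-0.15 ± 0.05, edgeR adjusted p = 0.145). The SA difference was 0.16 ± 0.05 (edgeR adjusted p = 0.112), which DESeq2 called at 0.0499. Dlx1 also lay wholly under NS in ANH, at 22.5 to 24.6 CPM in ANH Input and 24.99 to 32.6 CPM in NS Input (-0.23 ± 0.08, edgeR adjusted p = 0.101), and DESeq2 called it at 0.0422. For Slc32a1, Calb2, Reln, Lhx6 and Erbb4 no Input difference from NS was called.

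Oligodendrocyte markers differed in Input too. Their summed level had a median of 3162 CPM in SA, 2840 CPM in SA:ANH, 4389 CPM in ANH, 3773 CPM in RES and 2608 CPM in NS, with 6, 3, 9 and 8 of 10 called higher in SA, SA:ANH, ANH and RES. Striatal markers summed to 314 to 326 CPM in SA Input and 253 to 288 CPM in NS Input. Their part in the Input differences of Gad1 and Gad2 was not tested. None of 13 other interneuron transcription factors was called in any of the 4 subtypes against NS in Input. The 10 somatostatin markers summed to 1076 to 1131 CPM in ANH Input and 1162 to 1277 CPM in NS Input. The list headed by Vip summed to 239 to 253 CPM in ANH Input and 238 to 256 CPM in RES Input. In NS Input it was 257 to 277 CPM. In the other subtypes these sums overlapped NS, as did those of the parvalbumin and Lamp5 lists in all 4. None of these sums was tested.

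**Figure D4:**
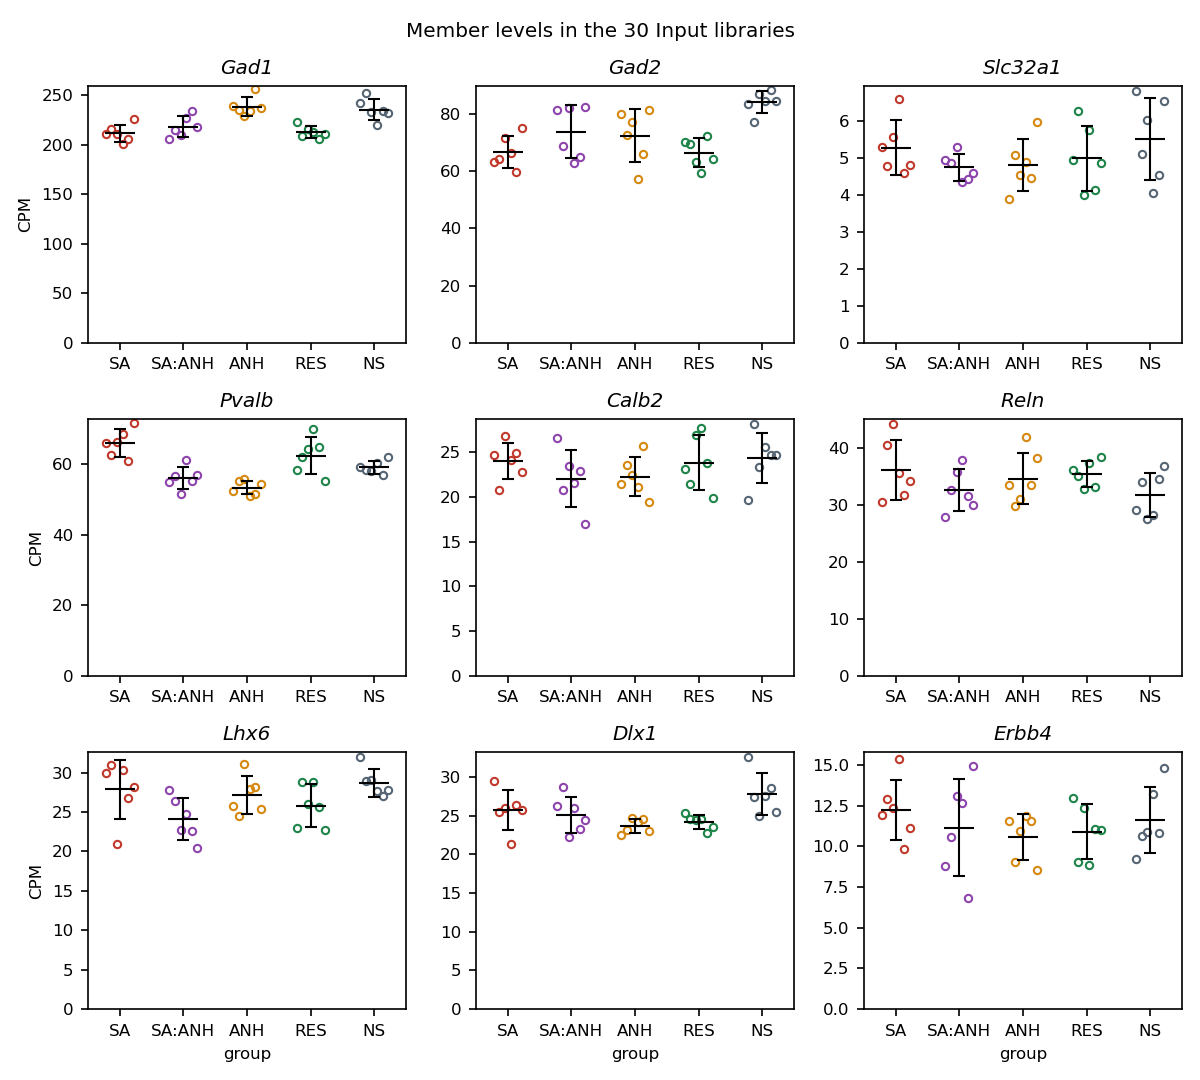
Level in CPM (vertical axes, from 0) of each gene in the 6 Input libraries of each group (horizontal axes). Circles are libraries and black lines the mean ± SD. The Gad2 libraries of SA lie between 59.8 and 75.2 CPM, under the lowest NS library at 77.2 CPM.

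To place the subtypes against each other, the 6 pairs were tested in each fraction. In IP, SA against RES gave Gad1 (-1.18 ± 0.21, edgeR adjusted p = 0.000122) and Gad2 (-0.70 ± 0.15, edgeR adjusted p = 0.00102), beside 11.6% of genes called. DESeq2 also called Pvalb there (-0.57, adjusted p = 0.0361) and limma voom Slc32a1 (-2.07, adjusted p = 0.0342), where edgeR gave adjusted p-values of 0.0584 and 0.0852. The Slc32a1 call rests on 1 to 10 counts per SA IP library. Only replicate 6, flagged below as far from its group, reached the filter's minimum count of 10. The gene thus passed the filter through other groups, RES among them, so this call is weak. SA:ANH against RES gave 4 members beside 13.8%, all lower: Gad1 at -0.64 ± 0.21, Gad2 at -0.82 ± 0.15, Pvalb at -0.63 ± 0.19 and Calb2 at -0.89 ± 0.24. The Pvalb call was lost with no filter on low counts, at an adjusted p of 0.0792. ANH against RES gave Pvalb alone (-0.91 ± 0.20, edgeR adjusted p = 0.00184), beside 9.21%. SA:ANH against ANH gave Gad1 (-0.87 ± 0.21) and Gad2 (-0.45 ± 0.15), beside 17.9%.

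SA and SA:ANH, the subtypes in which the Gad genes fell, differed in other members. SA:ANH against SA gave Calb2 (-1.19 ± 0.24, edgeR adjusted p = 0.000756) and Reln (-0.73 ± 0.20, edgeR adjusted p = 0.0124), beside 9.53% of genes. Gad1 and Gad2 were not called between them, at adjusted p-values of 0.107 and 0.725. SA against ANH gave Gad1 (-1.42 ± 0.21, edgeR adjusted p = 3.19e-06) and Reln, which was higher in SA (0.71 ± 0.20, edgeR adjusted p = 0.00744), beside 23% of genes. Calb2 was not called between SA and ANH (0.60 ± 0.24, edgeR adjusted p = 0.066), but limma voom called it at 0.028 and edgeR with the replicate number as a block at 0.032, both with a log2 fold change of 0.66.

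In Input, SA against ANH gave Gad1 (-0.17 ± 0.04, edgeR adjusted p = 0.00174) and Pvalb (0.30 ± 0.05, edgeR adjusted p = 0.000181), beside 7.88% of genes. ANH against RES gave Gad1 (0.16 ± 0.04, edgeR adjusted p = 0.00779) and Pvalb (-0.23 ± 0.05, edgeR adjusted p = 0.00944), beside 4.22%. SA:ANH against SA gave Pvalb (-0.24 ± 0.05, edgeR adjusted p = 0.0113), beside 3.54%. SA against RES, SA:ANH against RES and SA:ANH against ANH gave 0 members, beside 1.1%, 0.693% and 1.64% of genes, with 0, 1 and 1 at an unadjusted p under 0.05. DESeq2 called Gad1 in the last of these, at 0.0225.

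Whether a difference from NS was unlike in the fractions was tested as IP minus Input in a fit of all 60 libraries. Over the 4 subtypes together it was called for 6 members, Gad1, Gad2, Slc32a1, Pvalb, Calb2 and Reln, beside 24.6% of genes. This fit shared its estimate of spread per gene between fractions, though the members varied more between IP libraries. The biological coefficient of variation of Slc32a1 was 59.3% in IP and 16.9% in Input. Its SE in SA was 0.51 here and 0.68 in the IP fit, so p-values of this test can be too small. The Slc32a1 call also rests on 0 to 17 counts per IP library. For SA alone Gad1 was called, with a fall larger in IP by -1.12 ± 0.20 on the log2 scale (edgeR adjusted p = 3.37e-05), beside 9.05% of genes. For SA:ANH, Gad1 (-0.63 ± 0.19, edgeR adjusted p = 0.0153), Gad2 (-0.55 ± 0.16, edgeR adjusted p = 0.0119) and Calb2 (-0.93 ± 0.25, edgeR adjusted p = 0.00516) were called, beside 15.2%. For Gad2 in SA the difference between fractions was -0.28 ± 0.16 (edgeR adjusted p = 0.32). In ANH and RES 0 members were called beside 3.62% and 2.69%, each with 3 at an unadjusted p under 0.05. In RES, Lhx6 stood at 1.08 ± 0.35 (edgeR adjusted p = 0.0814), which DESeq2 called at 0.0405 and limma voom at 0.0479.

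**Figure D5:**
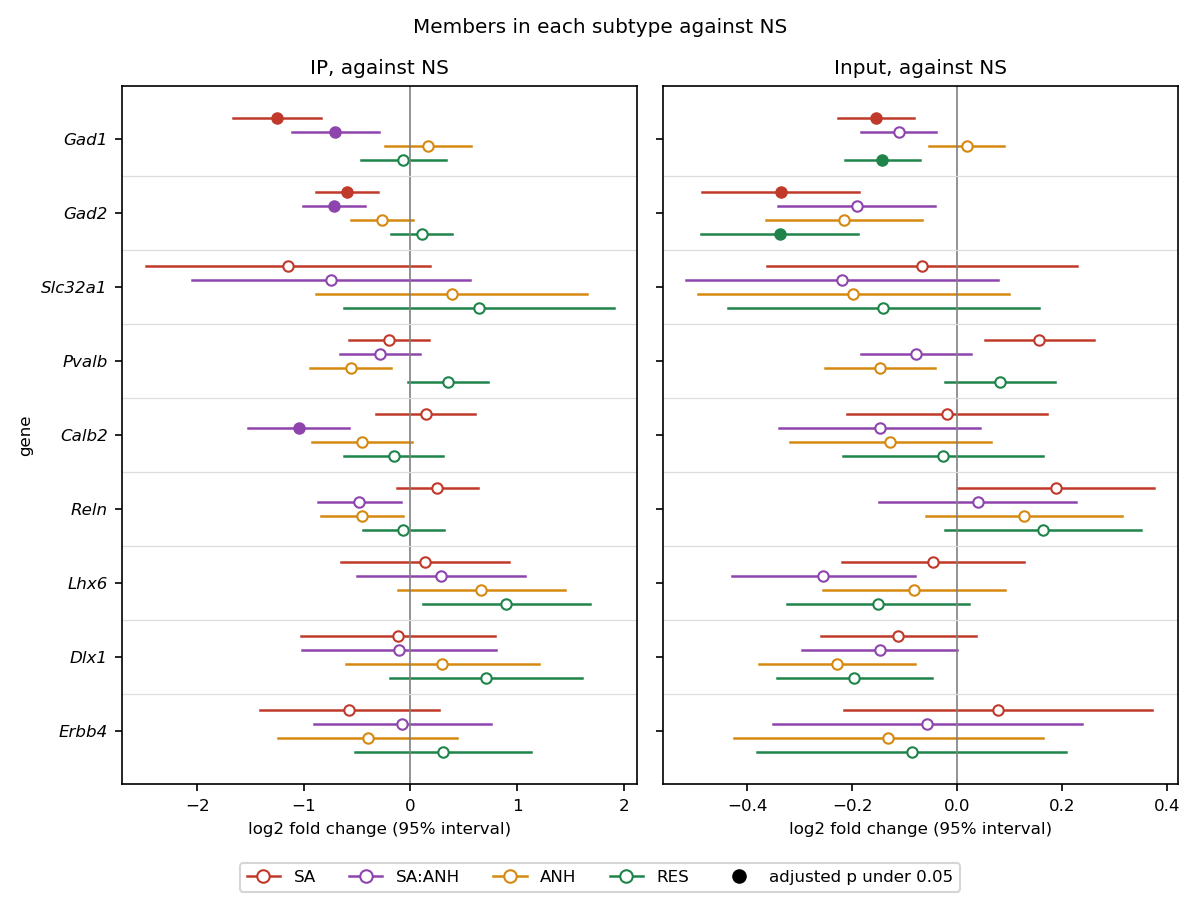
Log2 fold change against NS (horizontal axes, with different ranges) of each gene (vertical axis) in IP (left) and Input (right). Points are estimates, lines 95% intervals, colours subtypes, and filled points have an adjusted p under 0.05. Gad1 in SA lies at -1.25 in IP and at -0.15 in Input.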

How the data were processed

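The authors deposited a table of expected counts, which are estimates for each gene and can hold decimals (88.4% of values were whole within 0.000001). Per the labels' protocols, libraries were made with SMART-Seq v4 and TruSeq v2 kits and read as pairs of 100 bases. Build mm10 and the tools Bowtie2 2.2.3, TopHat2 2.0.13 and Trimmomatic 0.32 stand in the submitters' processing notes. Neither counting tool nor strand setting is named there. Amplified reads without molecular identifiers are not independent molecules.

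Counts were rounded, genes kept by filterByExpr (minimum count 10), scaled by TMM and tested with edgeR 4.0.16 in R 4.3.3, with 16670 genes in IP, 18170 in Input and 18937 in the fit of both. CPM used the TMM factors of all 60 libraries, while tests used those of their own fit. Intervals are the estimate ± 1.96 SE. The any-difference and fraction tests were F tests over 4 coefficients. All 9 members are named in every comparison, and from each other list up to 4 genes with the smallest p. The members, lists and tests were chosen with earlier results of these data known. Alternatives were RLE factors, DESeq2 1.42.0, limma 3.58.1 voom with quality weights, no filter, fits of 12 libraries and the replicate block. Leaving out each library, the Gad1 to Gad2 ratio and the motifs searched were added after the data were seen. A gene of the list of GABA uptake and breakdown is not reported here, and no count over that list is given. The test scripts were tested on simulated data. Libraries of a group were compared in 150 pairs, and chi-square per degree of freedom was 7.25 to 23.4, so none agreed within counting noise as the same library deposited again would. Separate preparations of one RNA could also differ this much.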

Additional observations from a re-analysis of the deposited data

Results flagged for a closer look

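A library lay far from the other 5 of its group in 5 of 90 combinations of member and group, and chance flags about 1 in 20 such groups. Gad1 in ANH Input replicate 5 had 256 CPM, where the next library had 239 CPM. Slc32a1 in SA IP replicate 6 had 0.483 CPM, where the next had 0.118 CPM, and in ANH IP replicate 4 it had 0.0959 CPM, where the next had 0.443 CPM. Calb2 in SA:ANH IP replicate 3 had 4.64 CPM, where the next had 2.66 CPM. Lhx6 in NS IP replicate 6 had 3.71 CPM, where the next had 1.32 CPM.

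The difference from NS was itself different in IP and Input, by the test of that difference, in 4 cases. That test shared its estimate of spread between fractions, so its p-values can be too small. IP minus Input was -1.12 for Gad1 in SA, -0.63 for Gad1 in SA:ANH, -0.55 for Gad2 in SA:ANH and -0.93 for Calb2 in SA:ANH, on the log2 scale. Oligodendrocyte markers also moved between these groups in both fractions, and their part in these differences was not tested.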

How the results depend on the processing

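Of the 14 counts of called members, those for SA against NS (2) and SA:ANH against NS (3) in IP held under RLE factors, DESeq2, limma voom, no filter, the replicate block and fits of 12 libraries. The count moved to 1 for SA:ANH and for ANH against NS in Input under DESeq2, and to 1 for RES against NS in Input with no filter on low counts. Leaving out each library in turn gave 0 to 1 called for ANH and for RES against NS in IP, 0 to 1 for SA:ANH against NS in Input, and 1 to 2 for RES against NS in Input. Of 108 such refits of the 9 called differences from NS, 3 lost the call and 0 changed sign. Of 756 refits of the 63 uncalled differences, 5 gained a call and 26 changed sign, in 12 differences near 0.

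The sign changes span these log2 ranges. Against NS in IP, Lhx6 in SA gave -0.041 to 0.61, Dlx1 in SA -0.48 to 0.078, Dlx1 in SA:ANH -0.38 to 0.051, Erbb4 in SA:ANH -0.34 to 0.21 and Gad1 in RES -0.12 to 0.038. Against NS in Input, Slc32a1 in SA gave -0.14 to 0.0054, Calb2 in SA -0.072 to 0.027, Lhx6 in SA -0.077 to 0.026, Reln in SA:ANH -0.0057 to 0.090, Erbb4 in SA:ANH -0.16 to 0.054, Gad1 in ANH -0.0044 to 0.037 and Calb2 in RES -0.082 to 0.020.

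Under limma voom the sign changed for Erbb4 in SA:ANH against NS in IP (0.075), Reln in SA:ANH against ANH in IP (0.0049), Erbb4 in SA against ANH in IP (0.063), Gad2 in SA against RES in Input (-0.0093) and Erbb4 in SA:ANH against RES in Input (-0.016). For IP minus Input it changed for Reln in SA (-0.059), Dlx1 in SA:ANH (-0.030) and Erbb4 in SA:ANH (0.13). With no filter it changed for Dlx1 in SA, IP minus Input (0.0086). None of these was called, and the cause was not tested.

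Equal replicate numbers were not taken to pair libraries, since deviations of same-numbered libraries correlated at a median of 0.00133 in IP and 0.0147 in Input, and at no more than 0.09 in any pair. As a hint from the data the other way, 12 of 30 IP libraries correlated best with the Input library of their own number, where chance gives 5, though these correlations reached only 0.0443. With the replicate block 2 members were called in SA and 3 in SA:ANH against NS in IP, and 14 rather than 13 over pairs of subtypes in IP, with Calb2 added in SA against ANH. Under the block the sign changed for Gad2 in SA against RES in Input (-0.0014) and, for IP minus Input, for Reln in SA (-0.0069), Dlx1 in SA:ANH (-0.060) and Erbb4 in SA:ANH (0.16). RLE factors moved the median of all genes in IP against Input to -0.13, and all 9 members stayed lower. The spread between IP libraries limits Slc32a1, Dlx1, Erbb4 and Lhx6, whose biological coefficient of variation was 59.3%, 53.2%, 49.1% and 45.9% in IP against 17.2% for Gad2.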

Other observations

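The ratio of the enzyme genes restates their IP and Input levels and is given without a test between fractions. Per exon length, the level of Gad1 over that of Gad2 was 1.43 ± 0.531 in IP and 4.96 ± 0.633 in Input (SD, n = 30 each). The highest IP library, at 2.60, lay under the lowest Input library, at 4.03. This ratio was chosen after its genes' values were seen. In IP it averaged 0.968 ± 0.372 in SA, 1.53 ± 0.696 in SA:ANH, 1.95 ± 0.497 in ANH, 1.28 ± 0.195 in RES and 1.44 ± 0.319 in NS. In Input it averaged 5.08 ± 0.346 in SA, 4.80 ± 0.811 in SA:ANH, 5.33 ± 0.816 in ANH, 5.13 ± 0.436 in RES and 4.47 ± 0.395 in NS. None of the 8 differences from NS passed a two-sided exact permutation test after adjustment over the 8, where the smallest p the design allows is 0.00216. The nearest were SA, ANH and RES in Input, at an adjusted p of 0.0924 each by that exact test.

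Over the 30 Input libraries, with group means taken off, the genes most like each member by Pearson r of log2 CPM among 10871 ranked genes were not members of the interneuron lists. Nearest to Gad1 were Tmem120a (0.73), Ank2 (0.71) and Actr3 (0.70), and nearest to Gad2 were Tmem44 (0.69), Cdc40 (0.64) and Hpcal1 (0.64). Nearest to Pvalb were Klhl33 (0.72), Rpl14 (0.71) and Atp5h (0.69). Gad1 and Gad2 themselves had an r of -0.28. These libraries share a fraction, and the values are a description. The highest of 10871 values over 30 libraries can be large for unrelated genes too. How large was not tested, so these genes are not shown to vary with the members.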
